A study of Mus musculus with 16 samples.

Results

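The genes described here encode 9 transcription factors, namely the nuclear receptors Ppara, Ppard and Pparg, their partners Rxra, Rxrb and Rxrg, and the C/EBP factors Cebpa, Cebpb and Cebpd. They were chosen by name, as 9 of the 21938 protein-coding genes of the GENCODE vM21 annotation. ATAC-seq, an assay in which the transposase Tn5 cuts open DNA and tags the ends, was run on spleen, kidney, lung, heart, liver, muscle and both white and brown adipose of male C57BL/6 mice. The mice were bought at an age of 12 weeks, kept for at least 10 to 14 days, and either fed chow freely (fed) or deprived of food for 24 hours (fasting). No allele or agent set the groups apart. Frozen powder of each tissue from the 3 mice of a state was pooled, so each tissue and state is 1 library, there are no replicates, and the 8 tissues of 1 state share their animals. A tissue pool also holds every cell type of that tissue, so a change in the share of a cell type and a change within cells cannot be told apart.

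PPARs are receptors for fatty acids and their derivatives that bind DNA as a pair with an RXR, typically at 2 copies of AGGTCA with 1 base between them. PPARα is known for fatty acid oxidation and ketone body formation in the fasting liver, PPARδ is widely expressed, and PPARγ is known as the main driver of fat cell formation. RXRs also pair with receptors for retinoic acid, thyroid hormone, vitamin D, oxysterols and bile acids. C/EBP factors are leucine zipper proteins: C/EBPβ and C/EBPδ act early in fat cell formation and in acute responses, and C/EBPα acts later and maintains liver and fat cell genes.

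Each list gives regions of open chromatin with a summit, a fold enrichment over the local expectation, a -log10 p and a -log10 q. A promoter peak is a row whose summit lies within 3000 bp of any annotated start of the gene, and a gene's promoter rank is the percentile, by -log10 p, of its strongest such row among all rows of that list (100 is the strongest row, 0 means no row). Ranks compare a gene with the other rows of its own list and are not a level of accessibility. Annotated starts less than 1000 bp from the next were joined into 1 start group. The number of tags expected over the genome as a whole, called the background here and proportional to depth, ran from 2.80 in fed liver to 12.8 in fed brown adipose. It was nearly the same in both states in liver (2.80 and 2.82) and spleen (3.20 and 3.35), and differed most in brown adipose (12.8 fed, 6.76 fasting), white adipose (10.02 and 5.87) and muscle (6.39 and 10.6). As a check of the labels, lists of 5 marker genes ranked highest in their own tissue, in the mean of both states, for 7 of the 8 tissues. The exception was white adipose, whose markers had a mean rank of 90.0 there and 93.1 in brown adipose. Muscle markers had a mean rank of 72.9 in white adipose, and the atrial gene Myl7 had no promoter peak in fasting heart. Taken by library, heart markers had a mean rank of 58.7 in fasting heart, below their 60.7 in fed spleen.

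Some of the starts and regions described below are shown by 8 stretches of DNA, each printed as 250 bases of the plus strand of GRCm38.p6. The promoters are the bases just before a RefSeq start, and the other stretches are centred on the summit of a deposited peak. Capitals mark matches, on either strand, to CCAAT or to the GC box GGGCGG, the only searched motifs found in them.

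The first 2 lie before the Rxrg starts, the upstream one (chr1:167598112-167598361, outside annotated genes) and the internal one (chr1:167618015-167618264, within Rxrg and outside its exons), which are shown because Rxrg had the widest range of ranks. A summit fell in the internal stretch in 14 lists and in the upstream one in 3, at ranks of 4.48 in fasting liver, 52.6 in fed white adipose and 42.7 in fed heart, while the strongest row at the upstream start had its summit downstream of it in every list but those of spleen.
Rxrg upstream: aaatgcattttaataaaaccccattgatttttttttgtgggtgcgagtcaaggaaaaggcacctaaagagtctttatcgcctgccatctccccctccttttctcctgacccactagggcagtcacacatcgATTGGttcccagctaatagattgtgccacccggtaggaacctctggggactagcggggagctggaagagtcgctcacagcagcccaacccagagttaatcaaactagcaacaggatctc
Rxrg internal: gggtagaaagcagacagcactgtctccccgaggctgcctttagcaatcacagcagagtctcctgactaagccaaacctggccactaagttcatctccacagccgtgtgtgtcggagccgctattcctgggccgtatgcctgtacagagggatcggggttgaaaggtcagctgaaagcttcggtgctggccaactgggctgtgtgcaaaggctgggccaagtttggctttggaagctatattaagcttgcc

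The next 2 belong to the Pparg-201 start, known as the start of the fat cell form Pparg2. They are the promoter itself (chr6:115421816-115422065) and the adipose summit downstream of it (chr6:115424448-115424697), both within Pparg and outside its exons.
Pparg-201 promoter: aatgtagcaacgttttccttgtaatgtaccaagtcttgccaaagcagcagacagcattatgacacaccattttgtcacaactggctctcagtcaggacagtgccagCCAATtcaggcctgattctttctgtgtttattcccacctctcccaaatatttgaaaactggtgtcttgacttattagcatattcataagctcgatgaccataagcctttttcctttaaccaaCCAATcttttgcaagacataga
Pparg adipose summit: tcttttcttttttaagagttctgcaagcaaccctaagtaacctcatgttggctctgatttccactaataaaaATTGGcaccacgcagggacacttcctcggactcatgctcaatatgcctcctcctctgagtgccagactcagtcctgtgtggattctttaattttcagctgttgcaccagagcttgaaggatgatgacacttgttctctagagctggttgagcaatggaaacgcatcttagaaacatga

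Another pair comes from Rxra. These are the summit at the internal Rxra-205 start (chr2:27740271-27740520, of which 212 bases are exon of that processed transcript) and the strongest region found in 1 tissue alone (chr2:27752591-27752840, within Rxra, outside exons, liver).
Rxra-205 summit: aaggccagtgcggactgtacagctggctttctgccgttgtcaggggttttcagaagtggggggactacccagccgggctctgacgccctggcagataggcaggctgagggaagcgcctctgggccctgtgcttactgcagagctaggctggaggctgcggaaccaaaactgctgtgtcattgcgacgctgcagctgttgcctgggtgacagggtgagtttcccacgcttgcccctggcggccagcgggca
Rxra liver region: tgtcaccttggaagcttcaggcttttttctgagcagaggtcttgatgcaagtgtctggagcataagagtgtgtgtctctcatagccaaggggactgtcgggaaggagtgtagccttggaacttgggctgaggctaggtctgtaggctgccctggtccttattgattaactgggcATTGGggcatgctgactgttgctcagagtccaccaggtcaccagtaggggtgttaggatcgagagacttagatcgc

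The last pair comes from Cebpb, whose strongest liver peak sits upstream (chr2:167688207-167688456) of the stretch just before the start (chr2:167688665-167688914). Both lie outside exons and inside the annotated span of Tmem189.
Cebpb liver summit: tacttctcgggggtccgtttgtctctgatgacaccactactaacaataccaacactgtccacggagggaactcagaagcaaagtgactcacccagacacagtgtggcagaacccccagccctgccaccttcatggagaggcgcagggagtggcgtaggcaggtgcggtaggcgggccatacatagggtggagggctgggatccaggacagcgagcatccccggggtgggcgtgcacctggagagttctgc
Cebpb promoter: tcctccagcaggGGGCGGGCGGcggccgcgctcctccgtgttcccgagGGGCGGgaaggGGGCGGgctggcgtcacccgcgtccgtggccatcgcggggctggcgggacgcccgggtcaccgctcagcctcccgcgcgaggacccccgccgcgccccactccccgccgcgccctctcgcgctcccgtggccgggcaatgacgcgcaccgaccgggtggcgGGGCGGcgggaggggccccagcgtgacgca

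The Cebpb promoter held 5 GC boxes, 2 of them overlapping, and a G and C content of 81.6%, against 40.8% at Pparg-201, 49.2% at the upstream and 55.2% at the internal Rxrg promoter. A GC box occurs in 32.7% and CCAAT in 33.8% of the 32851 RefSeq promoters of the same length, and in 11.4% and 27.7% of 201093 windows of that length at fed liver summits. The AGGTCA pair (0.0335% of promoters, 0.0806% of windows), the C/EBP palindrome TTGCGCAA (0.164% and 0.0960%) and the cAMP element TGACGTCA (1.55% and 0.383%) had no exact match in the 8 stretches, which says only that these letters are not there. RefSeq promoters were found for 8 of the 9 genes, with no entry for Cebpd.

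All 9 genes had a promoter peak with q under 0.01 in all 16 lists, where 59.9% of all protein-coding genes did and 88.5% had one in at least 1 list. The 9 genes differed in how strong these peaks were and in which start held them, and the promoter ranks are drawn in the heat map of genes by library. With a stricter q under 1e-06, Rxrg kept its peak in 14 lists and each of the other 8 genes in 16.

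**Figure D1:**
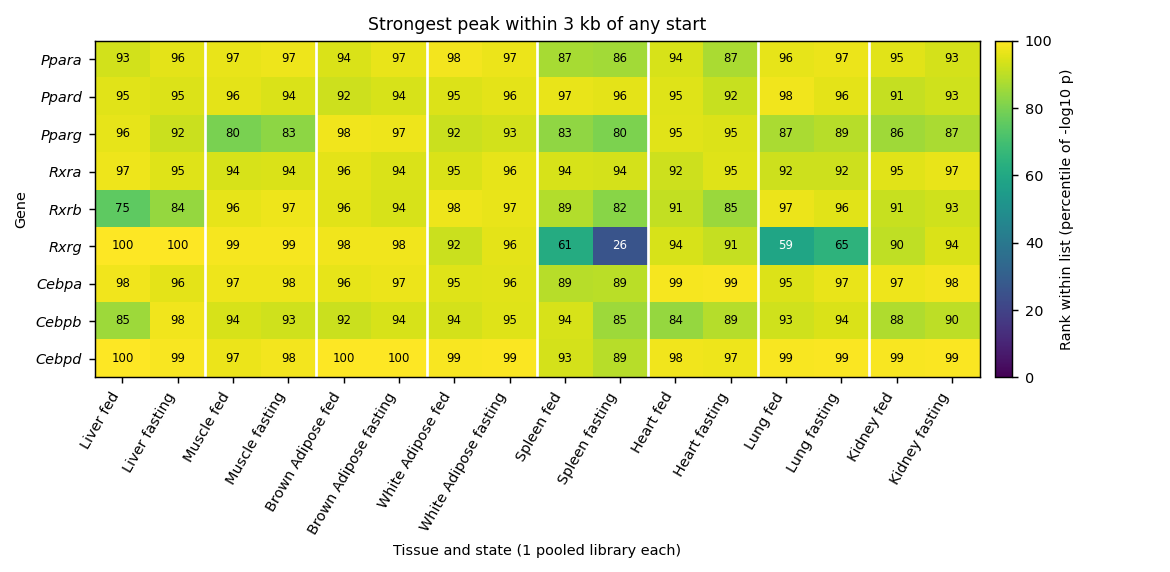
Promoter rank (percentile of -log10 p within the list, color and number) of 9 genes (rows) in 16 libraries (columns, fed then fasting within each tissue). Rxrg falls to 61.4 and 26.1 in spleen and to 58.7 and 64.6 in lung, Rxrb to 75.4 in fed liver and Pparg to 79.9 in fed muscle, while Cebpd reaches 93.4 or more in every list but fasting spleen.

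Among the PPARs, which bind fatty acids, Pparg varied most between tissues. Its promoter rank was 97.8 (fed) and 97.5 (fasting) in brown adipose, 95.4 and 94.6 in heart, 96.2 and 92.1 in liver, and 91.9 and 93.2 in white adipose. It was 87.1 and 89.4 in lung, 85.6 and 87.2 in kidney, 83.5 and 80.3 in spleen, and 79.9 and 83.1 in muscle. Both brown adipose libraries stood above all other libraries, whereas liver overlapped both heart and white adipose, lung overlapped kidney, and spleen overlapped muscle. Ppara ranged from 86.2 in fasting spleen to 98.2 in fed white adipose, with the spleen libraries (86.96 and 86.2) lowest and the fasting heart library (87.4) next. Liver, where PPARα is known best, held a Ppara rank of 93.1 fed and 95.9 fasting and lay in the middle of the order of tissues. Ppard ran only from 91.3 in fed kidney to 97.7 in fed lung.

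Among the RXRs, Rxrg had the widest range of all 9 genes. Liver stood at 99.9 fed and 99.97 fasting, and muscle at 98.6 in both states. Brown adipose followed at 97.9 and 97.8, then white adipose at 92.0 and 95.9. In heart it was 94.0 and 91.3, in kidney 90.2 and 94.3, in lung 58.7 and 64.6, and in spleen 61.4 and 26.1. Liver, muscle and brown adipose did not overlap each other or any other tissue, white adipose, heart and kidney overlapped, and lung and spleen lay below all others and overlapped each other. The strongest row in fasting spleen rested on 13 tags (exact Poisson 95% interval 6.92 to 22.2) against 3.35 expected, and in fed spleen on 17 tags (9.90 to 27.2) against 3.34, so these ranks are imprecise. Rxrb, the widely expressed RXR, was lowest in liver (75.4 and 84.2) and highest in white adipose (97.5 and 96.5). The Slc39a7 start lies 130 bp from an Rxrb start and Gm20427 232 bp away, so the Rxrb promoter peak cannot be assigned to 1 gene. Rxra stayed between 92.2 and 97.3 in the 16 lists.

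Among the C/EBP genes, Cebpd had the strongest promoters, with ranks from 89.5 in fasting spleen to 99.8 in fed brown adipose and a median of 99.0 over the lists. Cebpa ran from 89.4 in fed spleen to 99.2 in fasting heart, and its spleen libraries (89.4 and 89.5) lay below every other library. An antisense gene, Gm45091, starts 302 bp from Cebpa, and these peaks carry no strand. Cebpb ran from 84.3 in fed heart to 97.7 in fasting liver, with most tissues overlapping, and the Tmem189 start lies 907 bp from its own.

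To ask whether a gene's rank followed the tissue, the mean absolute difference between fed and fasting libraries of the same tissue was compared with that under all possible ways of pairing fed with fasting libraries (exact permutation test, one-sided, smallest possible p 2.48e-05). The test ran over 19719 genes with Benjamini-Hochberg (BH) adjustment over all of them, and 48.1% of those genes passed an adjusted p of 0.05. Of the 9 genes 5 passed, close to that share. For Pparg the libraries of a tissue differed by 2.10 points on average, against 6.76 over all pairings (adjusted p = 0.0134, exact permutation test), and for Rxrg by 6.53 against 19.5 (adjusted p = 0.0190). Rxrb (3.46 against 6.999, exact permutation adjusted p = 0.0219), Cebpa (0.797 against 2.74, adjusted p = 0.0234) and Cebpd (0.920 against 2.36, adjusted p = 0.0240) also passed. Ppara (adjusted p = 0.0714), Rxra (0.179), Ppard (0.182) and Cebpb (0.477) did not pass the same exact permutation test. Without spleen 3 of the 9 genes passed, and Cebpa (adjusted p = 0.100) and Cebpd (0.103) were lost in the exact permutation test. The share of all genes that passed without spleen is not given here. Ranking by fold ended the calls of Rxrb (adjusted p = 0.160, exact permutation test) and Cebpd (0.0539). Leaving out 1 other tissue also ended those of Rxrb without kidney (exact permutation adjusted p = 0.0513), Cebpd without brown adipose (0.0502), and Cebpa without white adipose (0.0545) or heart (0.0628). The means of the 8 tissues spanned over 20 points in 40.9% of the genes tested, and among the 9 genes Rxrg (56.2 points) was the only one.

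The genes whose promoter ranks ran most like those of Rxrg over the 16 lists, among 16338 genes with a row in at least 8 lists, were P2ry1 (Pearson r = 0.948), Ucp3 (0.931) and Arntl2 (0.923). These are descriptions over libraries that share tissues, depth and list length. P2ry1 had tissue mean ranks from 86.5 in spleen to 99.4 in kidney, Ucp3, a mitochondrial carrier, from 47.5 in spleen to 93.2 in kidney, and Arntl2, a clock factor, from 90.2 in spleen to 99.8 in heart.

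Alternative starts were also ranked separately. The 9 genes had 23 start groups, and 12 of the 23 passed the same pairing test when every start group of all protein-coding genes was tested on its own (30.5% of 42394 start groups passed, adjusted over all of them).

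**Figure D2:**
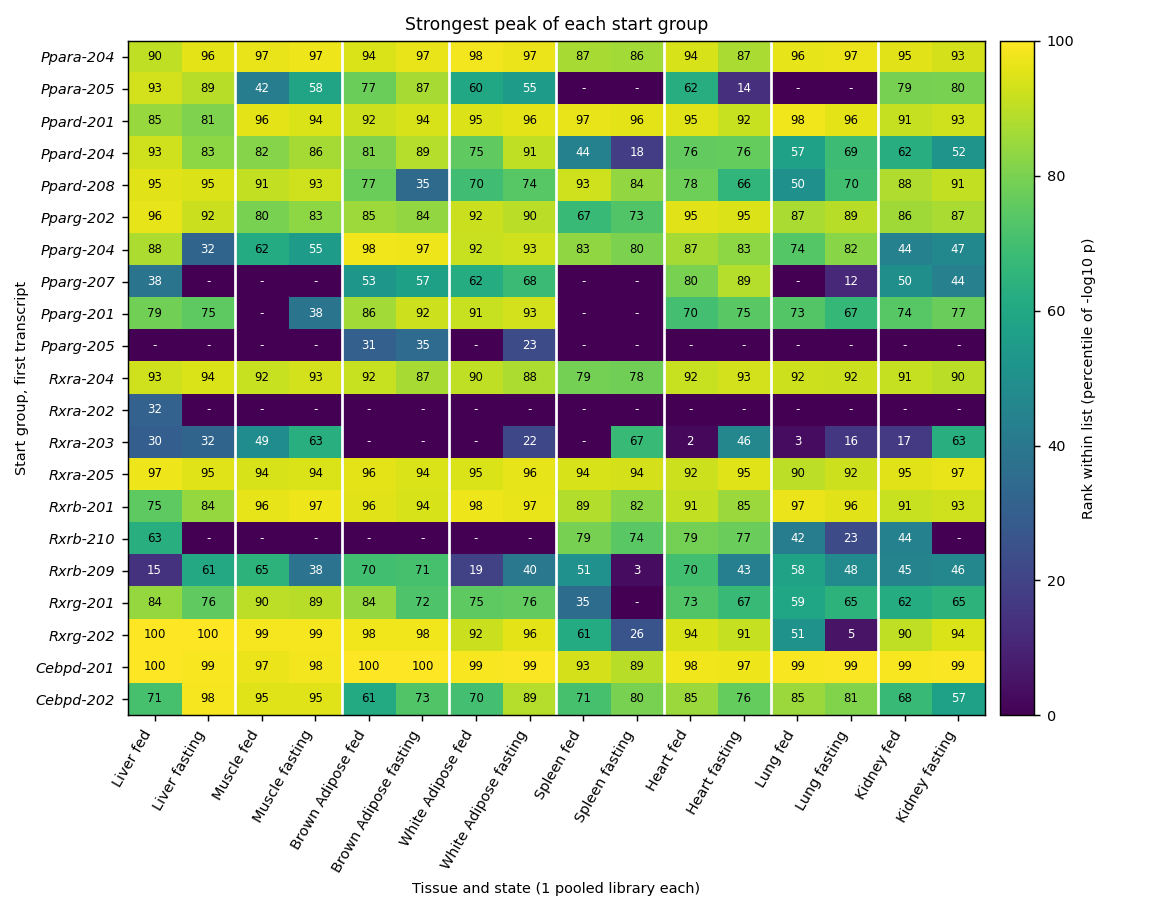
Rank of the strongest row nearest each start group (rows, named by the first transcript; a dash marks no row) in 16 libraries (columns), for the 7 genes with more than 1 start group. Rxrg-202 is at 90.2 or above in liver, muscle, both adipose tissues, heart and kidney and at 61.4 or below in spleen and lung, and Pparg-201 has no row in spleen or fed muscle.

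Pparg had 5 start groups on chromosome 6. The first, Pparg-202 at 115360951, led in 11 of the 16 lists, with ranks from 67.5 in fed spleen to 96.2 in fed liver. The group of Pparg-204, Pparg-206 and Pparg-203, at 115362292 to 115362350, led in both brown adipose lists (97.8 and 97.5) and both spleen lists (83.5 and 80.3). In kidney it was at 43.9 and 46.8, and in liver it was at 87.8 fed and 32.1 fasting. The Pparg-201 group, at 115422066 inside the gene, led in fasting white adipose. White adipose ranked 91.5 fed and 93.2 fasting there, and brown adipose 86.3 and 92.2. Ranks were 78.5 and 75.2 in liver, 74.2 and 77.3 in kidney, 73.4 and 66.7 in lung, and 70.3 and 74.6 in heart. In muscle there was no row fed and a rank of 38.4 fasting, and in spleen there was no row in either state. All 4 adipose libraries lay above the other 12, which was not tested on its own. The pairing test, which asks only whether libraries of a tissue lie closer than other pairings, was passed (adjusted p = 0.0151, exact permutation test).

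The rows of the Pparg-201 group did not lie at the same place. In the 4 adipose lists the strongest summit was 2501 to 2507 bp downstream of the start, in the adipose stretch printed above, with 622 tags (exact Poisson 95% interval 574 to 673) against 150 expected in fed brown adipose, and 127 (106 to 151) against 19.3 in fasting white adipose. In lung, kidney, heart and fasting muscle the strongest summit lay 982 to 1008 bp upstream. A row that covered the start base itself was present in 5 lists, namely the 4 adipose lists (ranks 82.5 and 84.7 in brown, 80.9 and 90.0 in white adipose) and fed liver (78.5). Summits within the printed Pparg-201 promoter were found in 8 lists. Of these, fed and fasting brown adipose (80.1 and 84.7) ranked highest, followed by fasting white adipose and fasting heart, and fed lung (20.8) was lowest. A further start, Pparg-207, had its highest ranks in heart (79.8 and 89.0) and white adipose (61.8 and 68.2) and no row in muscle or spleen (adjusted p = 0.0169 in the exact permutation test).

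Ppara had its upstream starts, a group from 85734983 to 85736131 on chromosome 15, leading in 15 lists. The exception was fed liver, where the group of Ppara-205, a processed transcript that starts at 85772214 within the gene, ranked 93.1 and the upstream group 90.3. The Ppara-205 group was at 89.4 in fasting liver, 79.4 and 80.01 in kidney, 77.4 and 87.03 in brown adipose, 60.04 and 55.0 in white adipose, 42.3 and 58.3 in muscle, and 62.2 and 13.95 in heart, with no row in spleen and lung. Both liver libraries stood above every other library there, and the group passed the pairing test (adjusted p = 0.0176, exact permutation test). The liver summits were 2210 and 2227 bp downstream of that start and the heart summits 2995 and 2266 bp downstream, while those of muscle, brown adipose, white adipose and kidney lay 198 to 652 bp upstream of it. Ppard had 3 start groups, of which the first led in 14 lists and Ppard-208, a retained intron transcript, led in both liver lists (95.4 and 94.7, against 84.7 and 80.7 at the first). The liver summits lay 2848 and 2843 bp upstream of the Ppard-208 start. Those of kidney lay 2844 and 2842 bp upstream, and those of spleen 1400 and 1406 bp downstream.

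Rxra was led by the internal Rxra-205 group at 27740201 on chromosome 2 in 15 lists, at ranks of 92.2 to 97.3 there, and by its upstream group in fed lung (92.5 against 90.2). The summits at Rxra-205 lay 187 to 208 bp downstream of the start in all 16 lists, in the stretch printed above. The upstream Rxra group ran from 78.4 in fasting spleen to 94.4 in fasting liver and followed the tissue (adjusted p = 0.0405, exact permutation test), which the Rxra-205 group did not (0.186).

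Rxrg was led in 14 lists by its internal start, Rxrg-202 at 167618309 on chromosome 1, and in both lung lists by the upstream group (58.7 and 64.6 against 51.2 and 5.27). The upstream Rxrg group was highest in muscle (90.1 and 89.3), followed by liver (84.3 and 75.6) and brown adipose (84.2 and 72.3), and had 1 row in fed spleen (35.5) and none in fasting spleen. Both Rxrg groups passed the pairing test (adjusted p = 0.0126 upstream and 0.0176 internal, exact permutation test). The 2 lists with no summit in the printed internal promoter were those of spleen, and a row covered the internal start in all lists but fasting spleen.

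Fasting was compared with fed by an exact sign-flip permutation test over the 8 tissues (two-sided, smallest possible p 0.00781), in which the tissues stand in for replicates although they come from the same mice. None of the 9 genes passed an unadjusted p of 0.05 in either direction, where 1.75% of the 19719 genes rose and 3.50% fell. At an adjusted p of 0.05, 0% of all genes passed, and the lowest adjusted p was 0.821. The mean difference in promoter rank, fasting minus fed, was -0.41 points in the median of the 9 genes and -0.084 in the median of all genes. It was largest for Rxrg at -3.03 points (SD over 8 tissues 13.4, lower in 4 tissues, p = 0.898 in the exact permutation test) and Cebpb at 1.82 points (SD 5.77, higher in 6 tissues, p = 0.422). Cebpa was higher in 7 tissues, by 0.392 points (SD 0.995, p = 0.336 in the exact test). These values depended on single tissues. Without spleen the Rxrg difference was 1.59 points, with the opposite sign (p = 0.219, exact permutation test). Both C/EBP genes stayed higher in fasting on leaving out each tissue, but by different amounts. Cebpb was 0.314 points higher in fasting without liver (p = 0.844, exact permutation test) and 3.28 without spleen (p = 0.0312 unadjusted). Cebpa was 0.680 higher without liver (p = 0.0156 unadjusted, exact permutation test) and 0.173 without lung (p = 0.672). The p without liver is the smallest possible once 1 tissue is left out.

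**Figure D3:**
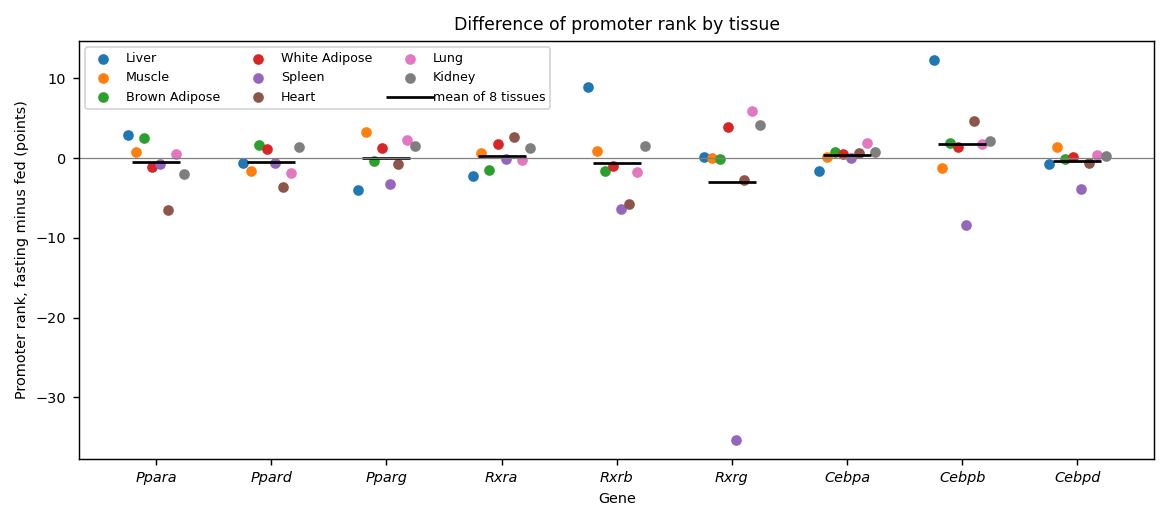
Difference in promoter rank, fasting minus fed, in points (vertical axis) for each gene (horizontal axis), with 1 point per tissue and a bar at the mean of 8 tissues. Points lie within 10 of zero except Cebpb in liver (12.3) and Rxrg in spleen (-35.3).

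Within single tissues, 2 of 72 gene and tissue pairs moved by more than 10 points, 1 up and 1 down, and over all genes 6.27% of pairs rose and 7.99% fell that far. The rise was Cebpb in liver, from 85.4 to 97.7, the only one of 9 genes there, where 9.43% of all genes rose by more than 10 points. The fall was Rxrg in spleen, from 61.4 to 26.1, where 9.46% of all genes fell that far. The Rxrg values in spleen came from different sites, with summits 181 bp (fed) and 2778 bp (fasting) downstream of the Rxrg-202 start. Fed and fasting ranks also came from different start groups for Ppara in liver, Pparg in white adipose and Rxra in lung. With 1 library per tissue and state these differences have no replicate check and no test.

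The strongest Cebpb summits in liver lay apart from those of the other tissues. They were 592 bp (fed) and 583 bp (fasting) upstream of the Cebpb start, in the upstream stretch printed above. The strongest summits of the other 14 lists lay between 240 bp upstream and 183 bp downstream. At that site the fed liver library had 60 tags (exact Poisson 95% interval 45.8 to 77.2) against 15.2 expected, a fold enrichment of 3.75, and the fasting library had 225 (197 to 256.4) against 33.9 expected, a fold enrichment of 6.48. The background depth of both liver libraries was alike, and the intervals cover counting error only. Every other gene but Rxrg, whose fasting tags were not solved, also had more tags at its strongest row in fasting liver. Examples are Cebpd (114 fed, 207 fasting), Cebpa (121 and 195), Rxra (94 and 130) and Pparg (49 and 64). Whether the Cebpb rise goes beyond this was not tested. The lung regions began at position 167688264 and also covered the liver summits. In fasting liver, rows also covered the Cebpb start base (ranks up to 94.3), and no fed liver row did. In spleen Cebpb went the other way, from 93.9 to 85.4, with 111 tags (91.3 to 134) fed and 73 (57.2 to 91.8) fasting. These tags came from different sites, as the strongest summit was 240 bp upstream of the start fed and 71 bp downstream fasting. The fed list also had a summit 61 bp downstream. The fasting list kept a summit in the printed Cebpb promoter, at rank 82.1 against 93.9 fed.

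Of the 23 start groups, 1 rose at an unadjusted p under 0.05 and 0 fell, where 1.63% of all start groups rose and 2.43% fell. It was the Rxra-203 group, at low ranks. The ranks were 48.6 and 63.0 in muscle, 29.9 and 32.3 in liver, 17.2 and 62.9 in kidney, 2.05 and 46.1 in heart and 3.47 and 16.04 in lung, fed first. In spleen and white adipose there was no fed row and a fasting rank of 67.3 and 21.7, and in brown adipose there was no row. The mean difference was 26.0 points (SD 23.9, higher in 7 tissues, p = 0.0156 unadjusted and 1 adjusted, exact permutation test), so it did not pass the correction.

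Beyond the promoters, the gene bodies extended by 20 kb held 570 merged regions of q under 0.01, from 22 at Cebpd and 27 at Rxrb to 111 at Rxra and 134 at Pparg. Of these, 30 were in all 16 lists (5.26%, against 3.07% of all 760105 merged regions) and 211 were in 1 list (50.1% of all merged regions were). Private regions, found in both states of 1 tissue with no row of any other tissue, numbered 49 (8.60%, against 10.4% of all). Brown adipose held 18 of the 570 as private regions, where 0.690% of all merged regions were private to brown adipose, and 11 of the 18 were at Pparg. Liver held 10 (1.41% of all merged regions were private to liver), kidney 8 (2.72%), muscle 7 (1.70%), spleen 3 (1.95%), lung 2 (1.18%) and white adipose 1 (0.392%), and heart held none (0.321%).

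**Figure D4:**
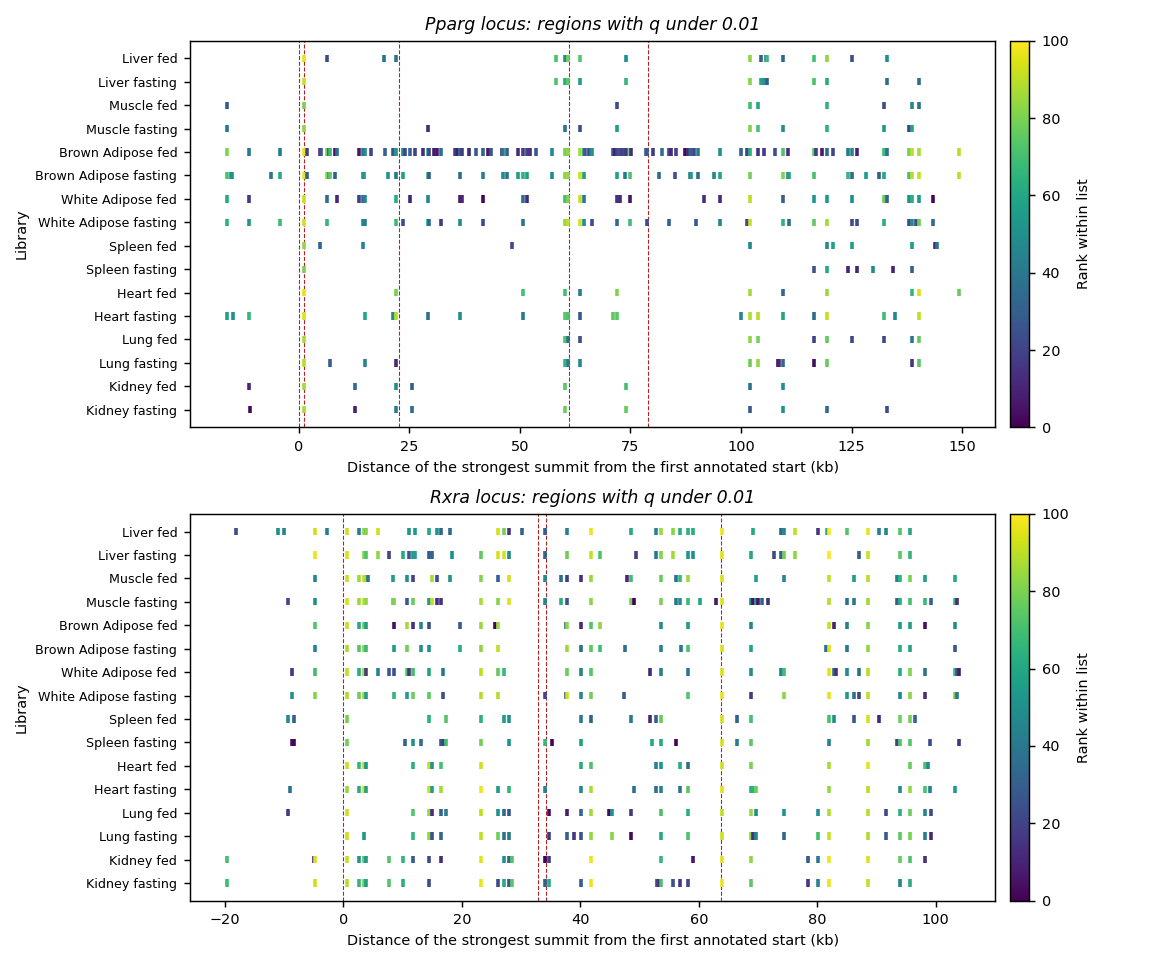
Regions of q under 0.01 (ticks, color is the rank within the list) in the extended bodies of Pparg and Rxra, by distance from the first annotated start in kb, with 1 row per library; red dashed lines mark start groups. The Pparg rows of fed and fasting brown adipose (102 and 54 regions) and white adipose (36 and 40) are the fullest, and 1 Pparg and 5 Rxra regions are in all 16 libraries.

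The Pparg locus set the adipose tissues apart. Of its 134 regions, 102 were in the fed and 54 in the fasting brown adipose list, 36 and 40 in white adipose, 12 and 24 in heart, 18 and 14 in liver, 12 and 16 in lung, 9 and 13 in muscle, 11 and 8 in spleen, and 9 and 11 in kidney. Since lists differ in size, the regions of each list at the locus were also given per 100000 regions of that list. Brown adipose then had 72.1 fed and 52.4 fasting Pparg regions, against 30.6 and 35.7 for white adipose, 10.6 and 21.1 in heart, 11.4 and 13.2 in liver, 9.35 and 11.4 in lung, 6.91 and 10.5 in muscle, 6.03 and 7.70 in kidney, and 5.42 and 4.87 in spleen. Brown adipose lay above white adipose and white adipose above the other 6 tissues, with no overlap. The background of these libraries was 12.8 and 6.76 tags in brown adipose, 10.02 and 5.87 in white adipose, and 8.92 and 7.14 in lung. The part of depth in these densities was not tested.

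**Figure D5:**
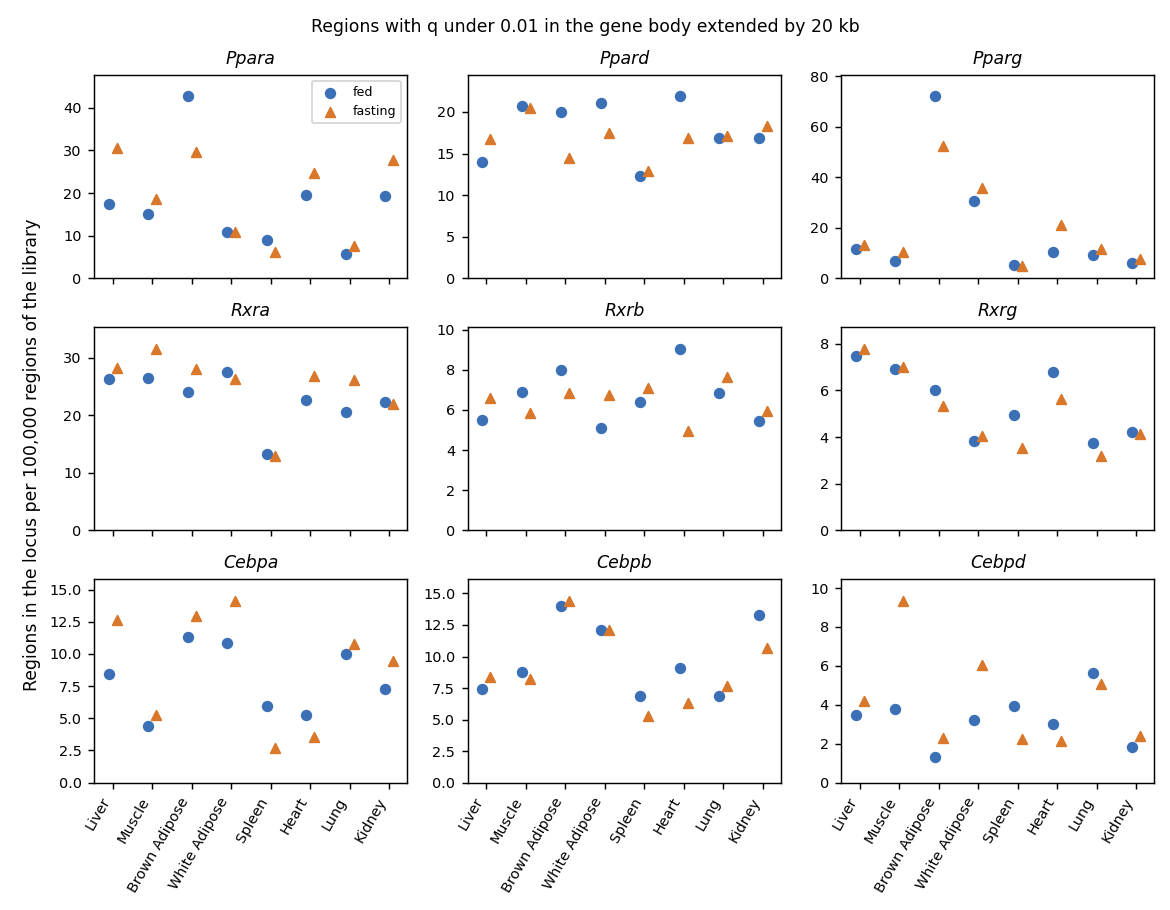
Regions of q under 0.01 in the extended gene body per 100000 regions of the library (vertical axis, from 0, scaled separately for each gene) in 8 tissues (horizontal axis), with 1 fed (circle) and 1 fasting (triangle) library each. Pparg is highest in brown adipose (72.1 and 52.4), Ppara in fed brown adipose (42.7), and Rxrg in liver (7.46 and 7.80).

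The same exact pairing test on these densities, over 20923 genes, was passed by 40.0% of all genes and by 5 of the 9. By this exact permutation test these were Pparg (mean difference within tissues 5.62 against 18.2 over all pairings, adjusted p = 0.0140), Rxrg (0.565 against 1.74, adjusted p = 0.0140), Ppara (6.03 against 11.9, adjusted p = 0.0194), Cebpb (1.21 against 3.23, adjusted p = 0.0243) and Cebpa (2.24 against 4.24, adjusted p = 0.0308). At Ppara, brown adipose held 42.7 and 29.6 per 100000, with 17.4 and 30.6 in liver, 19.3 and 27.8 in kidney, and 5.61 and 7.62 in lung. Rxrg had 7.46 and 7.80 in liver and 3.74 and 3.18 in lung. Cebpa was highest in white adipose (10.8 and 14.1), brown adipose (11.3 and 12.9) and liver (8.45 and 12.6), Cebpb in brown adipose (14.02 and 14.4), and both had their lowest tissue mean in spleen. At Cebpd, muscle had 3.77 fed and 9.35 fasting, and 16 of the 22 Cebpd regions were in the fasting muscle list against 5 in the fed one, whose background was 6.39 tags against 10.6. None of the 9 genes differed between fasting and fed in density at an unadjusted p of 0.05 (exact sign-flip test), the lowest being Rxra at p = 0.0703 (2.33 higher, SD 2.74, higher in 5 of 8 tissues).

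The strongest private region outside a promoter window was that of Rxra in liver, chr2:27752636-27752891, with ranks of 90.7 fed and 83.0 fasting, 12515 bp from the nearest Rxra start. It was followed by a brown adipose region 6758 bp from the nearest Cebpa start, chr7:35125978-35126225 (74.3 and 73.2). For Ppara the strongest was in liver, chr15:85752737-85752974 (52.4 and 65.5), for Ppard in muscle, chr17:28266744-28267015 (48.7 and 57.6), for Pparg in liver, chr6:115466826-115466934 (67.0 and 28.9), and for Cebpd in liver, chr16:15910181-15910518 (65.6 and 47.4). Those of Rxrb (spleen, 32.8 and 17.5) and Rxrg (liver, 15.3 and 31.9) were weaker, and both private regions of Cebpb lay within 3000 bp of its start. The Rxrb region lay 143 bp from the start of Col11a2 and 14595 bp from the nearest Rxrb start. The Pparg region lay 1904 bp from the start of Gm44079, so neither can be assigned to 1 gene. Of the strongest regions shared across lists, chr6:115462701-115463668 within Pparg was in 15 lists, all but fasting spleen, at up to 91.5 in fasting white adipose. Another, chr2:27763739-27765499 downstream of Rxra, was in all 16 at 82.4 to 96.5. At Ppara, Ppard and Rxrb the strongest shared regions lay 71 bp from the start of Cdpf1, 96 bp from that of Fance and 3 bp from that of H2-Ke6, and cannot be assigned to 1 gene.

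Across the 570 regions, 4 were present in fasting and absent in fed in 3 or more tissues, and 3 were the reverse, where 0.834% and 0.781% of all merged regions were. One at Rxra, chr2:27687759-27688334, was counted among the 3 fed ones (brown adipose, heart and kidney) and was also present in fasting alone in liver and spleen, with ranks up to 77.5.

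Genes of the same pathways were compared by lists chosen by name. Over all genes, 59.9% had a promoter peak in all 16 lists, 1.75% rose and 3.50% fell at an unadjusted p under 0.05, and 48.1% followed the tissue, and the counts of each list are to be read against these shares. Of 13 partners of RXR, 9 had a promoter peak in all 16 lists, none rose and 1 fell at an unadjusted p under 0.05, and 10 followed the tissue. The one that fell was Rara, a retinoic acid receptor (-2.16 points, SD 2.94, lower in 6 tissues, p = 0.0469 unadjusted and 0.892 adjusted, exact permutation test). The largest mean rise was that of Nr1i3, the xenobiotic receptor CAR, at 15.1 points, and the largest fall that of Nr1i2, the receptor PXR, at -16.1 points. Neither passed, with p = 0.188 and 0.0625 in the exact test, and they had a peak in 6 and 11 lists. Of 3 other C/EBP genes all had peaks in all 16 lists and 1 (Ddit3) followed the tissue. The mean difference was 2.58 points for Cebpe and -0.248 for Ddit3. Of 12 coregulators all had peaks in all 16 lists and 2 followed the tissue, with means of 1.27 points for Lpin1 and -1.12 for Ppargc1a, the coactivator PGC-1α, at the ends. Of 18 PPAR target genes 13 had peaks in all 16 lists, 12 followed the tissue, 1 rose and none fell at an unadjusted p under 0.05. It was Acot1, an acyl-CoA thioesterase (4.21 points, SD 4.66, higher in 6 tissues, p = 0.0312 unadjusted and 0.821 adjusted, exact permutation test). The largest mean rise among the targets was that of Cidec, a lipid droplet protein, at 13.6 points (higher in 7 tissues, p = 0.133, exact test), and the largest fall that of Lpl, lipoprotein lipase, at -5.27 points (p = 0.477, exact test). No gene of any list passed the test of fasting against fed after adjustment over all genes. The median of the mean differences was 0.281 points for RXR partners, 0.861 for other C/EBP genes, 0.116 for coregulators and 1.79 for PPAR targets, beside -0.084 for all genes.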

How the data were processed

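Nuclei from pooled frozen tissue powder were isolated on iodixanol, tagged with Tn5 and sequenced. Per the labels and the study's methods, trimmed reads were aligned by the authors to GRCm38 using Bowtie2. Duplicates, unmapped and mitochondrial reads were dropped, read ends were moved to the Tn5 cut, and MACS2 called the peaks (tool versions are not given in the sources used here). The authors capped each list at the rows of smallest p and took out blacklisted regions. In 8 libraries every row had q under 0.01, so the cap and not q ended the list. In the deposited files fold enrichment is the authors' ratio of summit tags to expected tags, with 1 added to each. The -log10 p and -log10 q are deposited as the authors' peak caller gave them for each library alone. The score column, deposited by the authors as a capped multiple of -log10 p, was not used. None is scaled between libraries, so they were ranked within lists. Neither reads nor signal tracks were used here.

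Starts were those of GENCODE vM21. A later release named by the study was not used here. A peak needs q under 0.01. Ranks use all deposited rows, and a gene with none in its window has rank 0. Tags at a summit were solved from fold and p, and were whole (within 0.02) for 100% of the rows solved. Exact Poisson intervals cover counting error only. Coordinates are counted from 1. No list ran past the chromosome lengths of GRCm38.p6. Sequences came from RefSeq promoters and that genome. Tests were exact permutation tests over the libraries of all 8 tissues, run on every gene. Their p-values speak of these pools only, since the tissues of a state share their mice. Python 3.11.15, numpy 2.4.6, pandas 2.3.3, scipy 1.17.1, numba 0.67.0 and matplotlib 3.10.9 were used, and the tests were checked on simulated data. All 9 genes were named, with the genes most like those spanning over 20 points, neighbours within 3000 bp, the strongest private and shared region outside the windows, and the largest rise and fall of each pathway list. The members, gene lists and motifs were chosen with earlier results of these data known. The 8 printed sequences and the Rxra-203 and Cebpb details were chosen after their values were seen. Alternatives covered the window, q, ranking by fold, distinct regions, overlap, coding starts and leaving out each tissue. Tests of start groups and of region density were added after values were seen.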

Additional observations from a re-analysis of the deposited data

Results flagged for a closer look

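The 4 start groups below moved by more than 10 points up in 1 tissue and more than 10 down in another. Differences are in rank, fasting minus fed. Others did the same. Ppara-205 went from 42.3 to 58.3 in muscle and from 62.2 to 13.95 in heart. Pparg-207 went from no row to 11.6 in lung and from 38.4 to no row in liver. The share of all start groups that did so is not given here. With 1 library per tissue and state, the difference between the tissues was not tested. Cebpd-202 rose by 27.5 points in liver (71.0 to 98.5) and changed by -10.8 points in kidney (67.8 to 57.0). Ppard-204 was 15.1 points higher in fasting white adipose (75.4 to 90.5) and -25.5 points in spleen (43.9 to 18.3). Its strongest spleen summit lay 1409 bp (fed) and 2186 bp (fasting) upstream of the start. Ppard-208 was 19.4 points higher in fasting lung (50.4 to 69.7) and -42.9 points in brown adipose (77.4 to 34.5), where the background fell from 12.8 to 6.76 tags. The fed and fasting values of Ppard-208 came from different sites. In lung the strongest summit was 1410 bp downstream of the start fed and 2412 bp upstream fasting. In brown adipose it was 2742 bp upstream fed and 616 bp downstream fasting. Rxrb-209 was 46.0 points higher in fasting liver (14.5 to 60.5) and -47.5 points in spleen (50.6 to 3.13).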

How the results depend on the processing

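No paired analysis by mouse or replicate number was possible because each tissue and state is 1 pooled library, and the sign-flip test already pairs fed with fasting by tissue. A promoter peak was found in all 16 lists for 9 of 9 genes under all rows, any overlap, the narrow window and coding starts, with the Rxrg exception at q under 1e-06. The count of genes that differed between states at an unadjusted p under 0.05 was 0, and 1 when ranked by fold. Leaving out each tissue gave 0 to 1, with 1 without liver and 1 without spleen. The count of genes that followed the tissue was 5, and 3 to 5 on leaving out each tissue (3 without spleen). It was 7 when ranked among rows of q under 0.01, 6 with coding starts alone and 4 when ranked by fold. The shares of all genes under these altered settings are not given here, so the counts cannot be set against them. Regions at the loci fell from 570 to 349, and private ones from 49 to 31, in the gene bodies alone, and private ones to 17 at q under 1e-06, since both leave fewer regions. The first Ppard start led in 8 lists by fold. Mean fasting minus fed differences, none past the threshold here, changed sign when ranked by fold (Ppara 0.239, Ppard 0.225, Pparg 1.19), with rows of the same interval taken as 1 (Ppara 0.000131, Pparg 0.228), among rows of q under 0.01 (Pparg 0.142) and with coding starts alone (Rxra -0.752). Leaving out each tissue, they ran from -0.475 to 0.571 for Pparg, -1.99 to 0.184 for Rxrb, -4.30 to 1.59 for Rxrg, -0.660 to 0.0886 for Cebpd, -0.919 to 0.417 for Ppara and -0.0764 to 0.624 for Rxra. The Cebpb tissue pattern, all-pairings minus within-tissue difference, was -0.120 points with rows of the same interval taken as 1 and ran from -0.307 to 0.884 on leaving out each tissue. The cause was not tested. The expected background ran from 2.80 tags in fed liver to 12.8 in fed brown adipose, and depth was not tested as a cause.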
